A study of Mus musculus with 8 samples.

Results

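Cell cycle and DNA replication genes were followed in splenic CD4 T cells of mice with and without the aryl hydrocarbon receptor, Ahr. The 37 genes were listed by name as classical cell cycle and replication genes, with earlier results of these data known. Each was read from 1 probe set, the one with the highest mean over the 8 arrays among those annotated to that gene alone. Of the 37, 35 were measured in this way, out of 12393 genes in all, and Ccnb1 and Cdca8 had no such probe set. The 35 had 63 probe sets between them.

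A dividing cell passes through a gap phase, copies its DNA in S phase and then segregates the copies in mitosis. Cyclins switch cyclin-dependent kinases on at each step, the MCM helicase opens replication origins, and mitotic kinases and the spindle separate the chromosomes. In resting cells the RB family, with E2F factors and the MuvB core, holds most of these genes down, through E2F sites in early genes and through a cell cycle genes homology region in late ones. Most splenic CD4 T cells of an unchallenged mouse are out of cycle, and these transcripts are commonly read as a sign of how many cells are cycling.

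The groups were wild type C57BL/6 mice (WT) and mice with an Ahr knockout backcrossed to C57BL/6 (KO), each given TCDD or DMSO. All mice were females of 8 to 12 weeks and were killed 24 h after a single intraperitoneal injection, of 10 µg/kg TCDD (dioxin, a potent ligand of the receptor) or of DMSO, with corn oil as the carrier in every group. Sorted CD4 cells of 4 pooled animals made 1 array, with 2 arrays in each of the 4 groups, so that KO and WT were compared as 4 against 4 arrays. The knockout is a property of the whole mouse, and the labels do not name the allele. The array labelled WT TCDD replicate 1 has a description that names the knockout although its title, source and strain name the wild type. It is used as WT, and the calls are also given without it. The transcript of Ahr itself was not lower in KO: 1 probe set read 6.11 to 6.29 on the WT and 6.49 to 7.08 on the KO arrays (difference 0.53; limma, BH adjusted p = 0.0658), and the other 6.31 to 6.64 and 6.35 to 6.86. How these probes sit relative to the deletion is not known here, so the genotype labels are not checked by them, and KO and WT stand for arrays labelled so. Cyp1a1, a classical target of the activated receptor, read 5.77 to 5.94 on all WT and 5.82 to 5.93 on all KO arrays, with no call for TCDD. All values are log2 expression values, so a difference of 1 is a doubling.

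Promoters are shown for 4 of the 5 genes called higher in KO, for Rrm2, whose difference was the largest, and for Top2a, whose window held the most matches. They are RefSeq sequences of assembly GRCm38.p6, read 5′ to 3′ on the gene's strand from 200 bases before the transcript start, and stop before the annotated gene begins, at −11 in Top2a and −42 in Mcm5. Capitals mark matches to the CCAAT box (CCAAT), the cell cycle genes homology region (TTTGAA or TTCGAA) and the E2F site, searched as TTCCCGC, then also as TTGGCGC, then also as TTCGCGC and finally as TTGCCGC, on either strand.
Cdk1 (chr10:69352913-69353112, minus strand): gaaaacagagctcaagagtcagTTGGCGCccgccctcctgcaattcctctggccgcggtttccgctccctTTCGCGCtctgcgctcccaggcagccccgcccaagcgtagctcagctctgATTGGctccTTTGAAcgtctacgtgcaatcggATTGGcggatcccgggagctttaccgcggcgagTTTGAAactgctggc
Plk1 (chr7:122159235-122159434, plus strand): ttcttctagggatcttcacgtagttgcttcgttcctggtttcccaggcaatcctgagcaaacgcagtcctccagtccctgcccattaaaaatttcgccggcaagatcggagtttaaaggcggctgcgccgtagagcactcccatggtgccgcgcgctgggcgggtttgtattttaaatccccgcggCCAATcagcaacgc
Birc5 (chr11:117849037-117849236, plus strand): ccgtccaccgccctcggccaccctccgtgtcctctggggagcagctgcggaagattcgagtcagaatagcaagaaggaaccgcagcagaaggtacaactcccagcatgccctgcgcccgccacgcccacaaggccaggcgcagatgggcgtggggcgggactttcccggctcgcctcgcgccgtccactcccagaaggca
Mcm5 (chr8:75109309-75109467, plus strand): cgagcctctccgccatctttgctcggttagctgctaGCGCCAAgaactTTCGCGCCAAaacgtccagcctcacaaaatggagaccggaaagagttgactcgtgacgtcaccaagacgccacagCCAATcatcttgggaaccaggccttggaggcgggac
Rrm2 (chr12:24708054-24708253, plus strand): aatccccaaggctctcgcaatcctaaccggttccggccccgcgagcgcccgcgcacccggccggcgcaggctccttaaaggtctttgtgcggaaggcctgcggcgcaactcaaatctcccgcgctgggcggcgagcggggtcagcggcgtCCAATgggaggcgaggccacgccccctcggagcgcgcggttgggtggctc
Top2a (chr11:99024200-99024389, minus strand): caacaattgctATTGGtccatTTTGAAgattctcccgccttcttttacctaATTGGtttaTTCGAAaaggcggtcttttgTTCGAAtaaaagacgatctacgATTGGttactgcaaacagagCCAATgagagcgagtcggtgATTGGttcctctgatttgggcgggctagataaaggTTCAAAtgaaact

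The Cdk1 stretch held 2 CCAAT boxes, 2 homology regions and 2 E2F sites, and that of Mcm5 held 3 E2F sites, 2 of which overlap, and 1 CCAAT box. In Plk1 the capitals show 1 CCAAT box, and a TTTGAA lay beyond the start, at 31 to 36. Aurka, called as well but not shown because its start lies inside the annotated gene, had CCAAT boxes from −51 and −19 and a TTTGAA at 33 to 38. The Birc5 window held none of these letters, which says only that they are absent from this stretch. Over windows of 300 bases (250 before and 50 after the start), 22 of 28 members with a window had a CCAAT box, 14 a homology region and 10 an E2F site. Counted over the 29 windows of these members (1 has a pair of starts), 23, 14 and 11 held them, which is 79.3%, 48.3% and 37.9%, against 37.4%, 19.2% and 9.57% of all 32851 windows in the table. In the member windows 2 E2F matches overlapped one of the other motifs. The median log2 difference, KO minus WT, was 0.30 for the 14 members with a homology region and 0.12 for the 14 without, and 0.32 for the 10 members with an E2F site and 0.28 for the 18 without. These are descriptions of the list with no test, and a match is not a bound site.

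The arrays differed from each other in the actin control and in cell type markers. Whether this affected the members was not tested. The gap between actin's 3′ and 5′ control probe sets, which widens as RNA degrades, was 3.48 to 3.82 on the KO arrays, 3.70 and 4.56 on the WT arrays numbered 1, and 2.90 and 3.30 on the WT arrays numbered 2. In 17 of 35 members (48.6%) the WT array numbered 2 read below the one numbered 1 in both treatments, and in 0 it read above in both. The share below is near that over all genes, 41.9%. The share above was not computed over all genes. Among 170 further cell cycle genes, 70 read below and 48 above in both treatments. None of the 9 CD4 T cell markers was called between genotypes, and their summed linear level was 5128 to 7374 on WT and 5566 to 6504 on KO arrays. Of the 9, 4 read higher and 5 lower in KO. Cd5 and Trat1 differed by 0.90 and −0.835, each without overlap between the genotypes (limma, BH adjusted p = 0.0644 and 0.109). Of 16 myeloid and dendritic cell markers 11 were called higher in KO, as were 1.90% of all genes. Their summed level was 1924 to 2148 on WT and 5429 to 8117 on KO arrays. Calls were 1 of 10 for CD8 T cell and NK cell markers (Nkg7, higher) and 0 of 12 for B cell and plasma cell, 0 of 4 for germinal centre, 0 of 7 for neutrophil, 0 of 9 for erythroid precursor and 0 of 8 for activated T cell markers. The activated T cell markers summed to 2325 and 2424 on the WT arrays numbered 2, to 3440 and 3696 on those numbered 1, and to 3249 to 4393 on the KO arrays. The B cell and plasma cell markers summed to 1206 to 1666 on WT and 1533 to 2878 on KO arrays, with Jchain, an antibody chain of plasma cells, 1.43 higher in KO without a call. The CD8 T cell and NK cell markers summed to 980 to 1392 on WT and 1214 to 1911 on KO arrays. Below 6.13, the median probe set, were 3 of these 10 (Cd8a, Cd8b1 and Ncr1) and 6 of the 12 B cell and plasma cell markers (Ms4a1, Cd79a, Pax5, Blk, Cr2 and Ebf1). The part of other cells in the differences below was not tested, and in sorted, pooled cells more cycling cells and more transcript per cell cannot be told apart.

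In KO, 5 of the 35 members rose and none fell: the mitotic entry kinase Cdk1, the mitotic kinases Aurka and Plk1, survivin (Birc5) and the helicase subunit Mcm5. The rises were modest, from 1.30-fold for Plk1 to 1.75-fold for Cdk1. The share called higher was 14.3%, against 1.90% of the 12393 genes. The share called lower was 0 of 35, against 1.33%. In 8 members all KO arrays lay above all WT arrays (22.9%, against 6.28% of all genes), and in 0 all lay below (against 6.71%). These 8 were the 5 called genes, Rrm2, Ccne1 and Tk1. Of the 35, 27 read higher in KO (77.1%, against 51.1% of all genes), and the median difference was 0.28, against 0.01 over all genes. The list was chosen with earlier results of these data known, so these shares describe it and are no independent test. Calls are limma adjusted p-values under 0.05 with Benjamini-Hochberg (BH) adjustment over all 22626 probe sets tested.

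**Figure D1:**
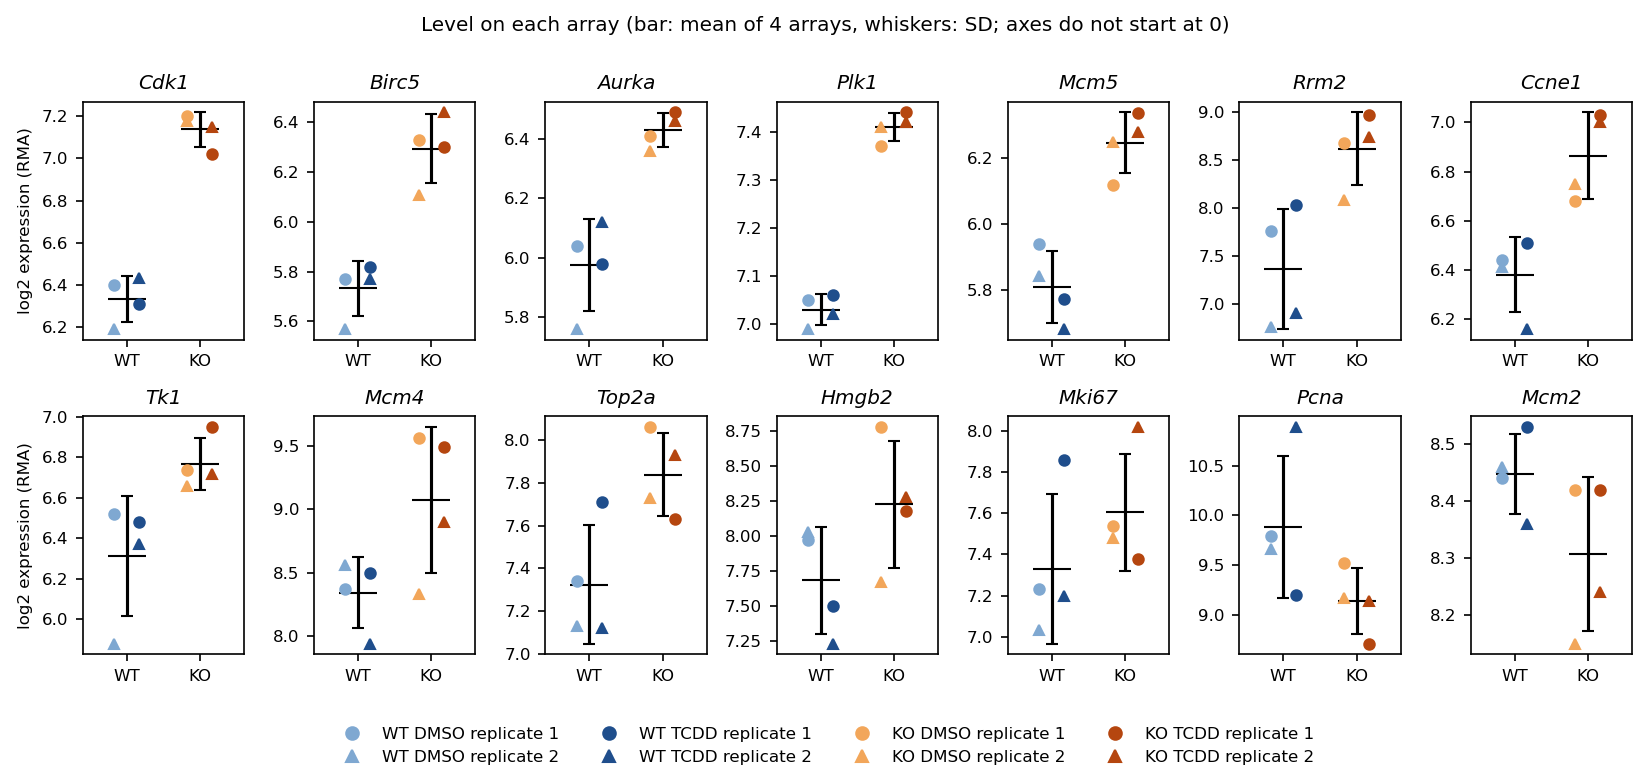
Log2 expression (vertical axes, each with its own range) of 14 members on the 8 arrays, with WT on the left and KO on the right of each panel; points are arrays, bars the mean and whiskers the SD of 4 arrays. For Cdk1 the KO arrays sit between 7.02 and 7.20 and the WT arrays between 6.19 and 6.43, while for Mki67 and Mcm2 the genotypes overlap.

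Among the cyclins and their kinase, Cdk1, the catalytic partner of cyclins A and B, differed most clearly. It read 6.40 and 6.19 in WT DMSO, 6.31 and 6.43 in WT TCDD, 7.20 and 7.18 in KO DMSO, and 7.02 and 7.15 in KO TCDD. Every KO array was above every WT array, with a gap of 0.59 between the nearest. The KO mean was 7.14 ± 0.08 and the WT mean 6.33 ± 0.11 (SD, n = 4 arrays per genotype), a difference of 0.81 (SE 0.08; limma, BH adjusted p = 0.00583). Ccne1, cyclin E1, which drives entry into S phase, read 6.16 to 6.51 in WT and 6.68 to 7.03 in KO without overlap and missed the threshold (difference 0.49, SE 0.11; limma, BH adjusted p = 0.0592). Ccna2, the S phase cyclin, read 0.49 and Ccnb2, a mitotic cyclin, 0.31 higher in KO, with overlapping arrays and no call. The paralogue Ccne2 read 4.02 ± 0.10 in WT and 3.93 ± 0.10 in KO (SD, n = 4 each), below the median probe set on every array, and its difference was −0.10.

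Of the mitotic kinases and the chromosomal passenger complex, 3 of 4 measured members rose. Birc5, the passenger subunit that brings Aurora B to the centromere, read 5.77 and 5.57 in WT DMSO, 5.82 and 5.77 in WT TCDD, 6.33 and 6.11 in KO DMSO, and 6.30 and 6.44 in KO TCDD. Its difference was 0.56 (SE 0.09; limma, BH adjusted p = 0.0277). Aurka, the kinase of centrosomes and spindle poles, read 6.04 and 5.76 in WT DMSO, 5.98 and 6.12 in WT TCDD, 6.41 and 6.36 in KO DMSO, and 6.49 and 6.46 in KO TCDD. The KO arrays again lay above all WT arrays, by 0.24 at the nearest, and the difference was 0.46 (SE 0.09; limma, BH adjusted p = 0.0410). Plk1, which acts from mitotic entry to cytokinesis, had the tightest replicates of the list's calls. It read 7.05 and 6.99 in WT DMSO, 7.06 and 7.02 in WT TCDD, 7.37 and 7.41 in KO DMSO, and 7.44 and 7.42 in KO TCDD, so that the SD within a genotype was 0.03 and the difference 0.38 (SE 0.06; limma, BH adjusted p = 0.0248). Aurkb, the passenger complex's own kinase, read 5.21 ± 0.15 in WT and 5.49 ± 0.20 in KO (SD, n = 4 each) and was not called (limma, BH adjusted p = 0.232).

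**Figure D2:**
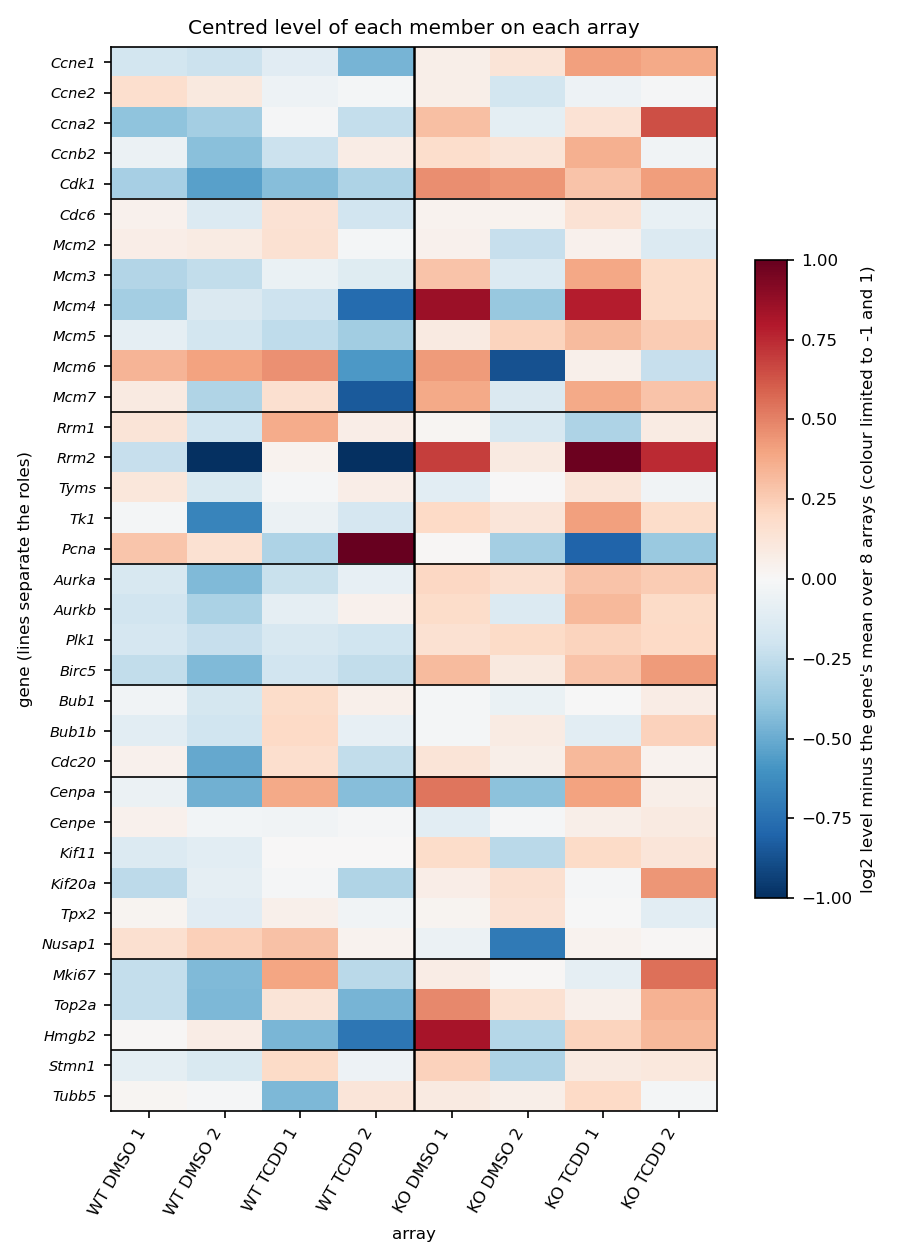
Heat map of the 35 members (rows, ordered by role) on the 8 arrays (columns), coloured by the log2 level minus the gene's mean over the arrays. Cdk1, Aurka, Plk1 and Birc5 change colour at the line between WT and KO, whereas Mcm6 and Cenpa range as widely within a genotype as between them.

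Of the 7 members that license and unwind origins, 5 read higher and 2 lower in KO. Mcm5, a subunit of the hexameric helicase, read 5.94 and 5.84 in WT DMSO, 5.77 and 5.68 in WT TCDD, 6.12 and 6.25 in KO DMSO, and 6.34 and 6.28 in KO TCDD, without overlap. Its difference of 0.44 (SE 0.08; limma, BH adjusted p = 0.0381) was the single call among them. Mcm4 read 8.37, 8.56, 8.50 and 7.94 on the WT arrays and 9.56, 8.33, 9.49 and 8.90 on the KO arrays (DMSO before TCDD), a difference of 0.73 that did not pass (limma, BH adjusted p = 0.176), with KO DMSO replicate 2 inside the WT range. Its other probe set read 0.38 lower in KO, and the chosen one carries the suffix x, which Affymetrix gives to probes that may also bind other transcripts. Mcm7 and Mcm3 read 0.45 and 0.37 higher, and Mcm6 0.31 lower, none of them called. The chosen Mcm3 and Mcm6 probe sets also carry the suffix x. The other probe sets of Mcm3 read 0.0025 to 0.16 higher, those of Mcm7 0.19 to 0.68 higher, and that of Mcm6 0.415 lower. Mcm2 read 8.44, 8.46, 8.53 and 8.36 in WT and 8.42, 8.15, 8.42 and 8.24 in KO, with a difference of −0.14 (SE 0.09; limma, BH adjusted p = 0.413). Cdc6, which loads the helicase onto origins, differed by 0.07 at a level under the median probe set.

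The members for nucleotide supply and the sliding clamp went in both directions and gave no call. Rrm2, the small subunit of ribonucleotide reductase that is limiting in S phase, read 7.76 and 6.76 in WT DMSO, 8.03 and 6.91 in WT TCDD, 8.68 and 8.08 in KO DMSO, and 8.97 and 8.74 in KO TCDD. The KO arrays lay above the WT arrays by 0.05 at the nearest. Its difference of 1.25 (SE 0.31), 2.38-fold, was the largest of the list and missed the threshold (limma, BH adjusted p = 0.0694). The WT arrays numbered 2 were about 1 log2 unit below those numbered 1, and without them the difference was 0.72. The chosen Rrm2 probe set carries the suffix x, and the others, without it, read 0.23 and 0.46 higher. Tk1, the thymidine salvage kinase, read 5.88 to 6.52 in WT and 6.66 to 6.95 in KO without overlap (difference 0.46; limma, BH adjusted p = 0.128). Pcna, the sliding clamp of the replication fork, was the largest difference in the opposite direction. It read 9.79 and 9.66 in WT DMSO, 9.20 and 10.89 in WT TCDD, 9.52 and 9.17 in KO DMSO, and 8.71 and 9.14 in KO TCDD. The genotypes overlapped, the difference was −0.75 (SE 0.33; limma, BH adjusted p = 0.250), and without WT TCDD replicate 2 it was −0.42. The large reductase subunit Rrm1 read 0.19 lower in KO, and Tyms, which makes thymidylate, differed by −0.01.

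**Figure D3:**
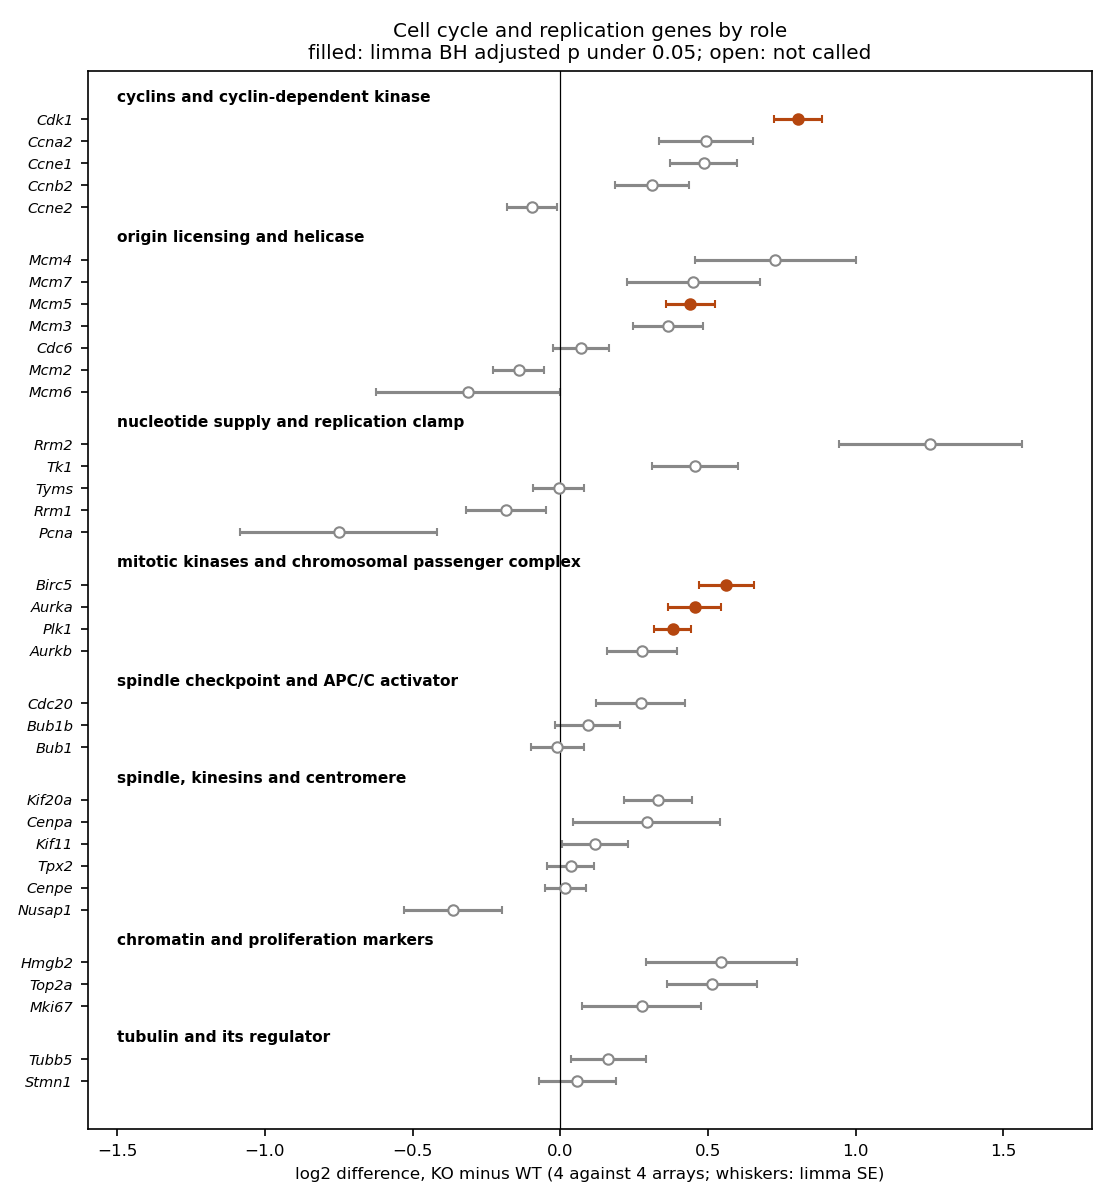
Log2 difference, KO minus WT (horizontal axis), of the 35 members by role; points are limma estimates from 4 against 4 arrays, whiskers their SE, and filled points the 5 called members. The members listed under mitotic kinases and the chromosomal passenger complex lie to the right of 0, from 0.28 to 0.56. The nucleotide and clamp genes spread from −0.75 to 1.25.

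The spindle and checkpoint members gave no call. Bub1 and Bub1b, kinases of the spindle checkpoint, differed by −0.01 and 0.09, and Cdc20, the activator of the anaphase-promoting complex, by 0.27. Among the 6 spindle and centromere genes, Kif20a, a kinesin of the central spindle, read 4.51 to 4.80 in WT and 4.80 to 5.25 in KO (difference 0.33; limma, BH adjusted p = 0.154). Cenpa, the histone variant of centromeres, read 0.29 and the spindle motor Kif11 0.12 higher. Tpx2, which activates Aurora A on the spindle, and Cenpe, a kinetochore motor, differed by 0.04 and 0.02, both under the median probe set. Nusap1, a microtubule-bundling protein, read 0.36 lower in KO (limma, BH adjusted p = 0.262), and KO DMSO replicate 2 was far below the other KO arrays.

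The usual markers of proliferation overlapped between the genotypes and gave no call. Mki67, the Ki-67 antigen, read 7.23 and 7.03 in WT DMSO, 7.86 and 7.20 in WT TCDD, 7.54 and 7.48 in KO DMSO, and 7.38 and 8.02 in KO TCDD. The groups overlapped, and the difference was 0.28 (SE 0.20; limma, BH adjusted p = 0.498). Leaving out KO TCDD replicate 2 gave 0.14, leaving out WT DMSO replicate 2 gave 0.18, leaving out WT TCDD replicate 1 gave 0.45, and leaving out both WT arrays numbered 2 gave 0.06. Top2a, the topoisomerase that untangles sister chromosomes, read 7.34 and 7.13 in WT DMSO, 7.71 and 7.12 in WT TCDD, 8.06 and 7.73 in KO DMSO, and 7.63 and 7.93 in KO TCDD, with KO TCDD replicate 1 below the highest WT array. The difference of 0.51 (SE 0.15) was not called (limma, BH adjusted p = 0.106) and was called without WT TCDD replicate 1, where it was 0.64; a second Top2a probe set read 0.26 higher in KO. Hmgb2, a chromatin protein abundant in cycling cells, read 7.97, 8.03, 7.50 and 7.23 on the WT arrays and 8.78, 7.67, 8.18 and 8.28 on the KO arrays, a difference of 0.55 with overlap and no call. Its probe set too carries the suffix x, the other one read 0.19 higher, and without KO DMSO replicate 1 the difference was 0.36. Stmn1, a microtubule destabiliser, and Tubb5, a beta tubulin, differed by 0.06 and 0.16.

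The number of calls depended on single arrays. Leaving out WT DMSO replicate 2, WT TCDD replicate 2, KO TCDD replicate 1 or KO TCDD replicate 2 left 1 call, Cdk1, each time. The share of all genes called higher then fell as well, from 1.90% to between 0.387% and 0.452%. The model of 4 group means also left Cdk1 alone, with 0.662% of all genes called higher. Without WT TCDD replicate 1, whose description conflicts, the 5 calls were Cdk1, Plk1, Birc5, Rrm2 and Top2a. Of all genes, 1.49% were then called higher. Without both WT arrays numbered 2 no member was called (8 of 35 read higher at an unadjusted p under 0.05, as did 6.62% of all genes), the median difference was 0.13, and Cdk1 read 0.78 higher (limma, BH adjusted p = 0.0539). Within DMSO alone Cdk1 read 0.90 and within TCDD alone 0.72 higher, with 0 calls by limma in either, where 7 and 11 of 35 members read higher at an unadjusted p under 0.05, as did 3.04% and 8.49% of all genes. Over the alternatives run for each, Cdk1 differed by 0.72 to 0.90, Birc5 by 0.50 to 0.62, Aurka by 0.38 to 0.50, Plk1 by 0.36 to 0.41 and Mcm5 by 0.30 to 0.59. Each of the 5 had an exact two-sided permutation p of 0.0286, the smallest that the 70 arrangements of 4 and 4 arrays allow. This p restates that the genotypes did not overlap. The same held for the 6.28% of all genes with KO above WT and the 6.71% with KO below.

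None of the 5 called members had a probe set besides the one used, so none of them has a second reading here. The 28 other probe sets, of 19 members, held 0 calls. Of these, 23 had the sign of the member's chosen probe set, and their median difference was 0.14. Of the 35 chosen probe sets, 9 carry the suffix x or s, letters for probes shared with other transcripts, and all 5 calls came from the 26 without.

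Of 170 further measured cell cycle genes, 6 rose (3.53%, against 1.90% of all genes) and 3 fell (1.76%, against 1.33%). In KO 78 read higher and 92 lower, and the median difference was −0.03, against 0.01 over all genes. These lists too were chosen with earlier results of these data known. Among those that rose was the ubiquitin-conjugating enzyme Ube2c, which works with the anaphase-promoting complex and read 5.12 ± 0.26 in WT and 5.95 ± 0.19 in KO (SD, n = 4 each; difference 0.84). Cdc45, a partner of the MCM helicase at the fork, rose by 0.69 and the condensin subunit Ncapd2 by 0.40. Of the gap phase cyclins and kinases, Ccnd1 (cyclin D1) rose by 0.99 and Cdk4 by 0.52, while Ccnd2 and Ccnd3, the D cyclins typical of lymphocytes, differed by 0.01 and 0.01. Tubb4b, a beta tubulin, rose by 0.78. The adjusted p of the 6 ran from 0.0307 (Ube2c) to 0.0488 (Tubb4b) (limma, BH).

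The 3 genes that fell were Foxo1, a transcription factor of quiescent T cells (10.34 ± 0.29 in WT, 9.11 ± 0.43 in KO, difference −1.23; limma, BH adjusted p = 0.0340), Ccng2, a cyclin found in arrested cells (9.63 ± 0.34 and 8.38 ± 0.49, difference −1.25; limma, BH adjusted p = 0.0444), and the cohesin subunit Stag1 (8.69 ± 0.16 and 7.73 ± 0.29, difference −0.96; SD, n = 4 each; limma, BH adjusted p = 0.0214). They have 4, 2 and 4 probe sets. With the second brightest probe set of each gene, 3 of the further cell cycle genes were called higher and none lower. The regulators gave no call: E2f1, an activating E2F, differed by 0.01, Foxm1, which drives mitotic genes, by −0.01, and the inhibitors Cdkn1a and Cdkn1b by −0.10 and −0.56 (limma, BH adjusted p = 0.132 for Cdkn1b). By list, the median was 0.08 over 37 other spindle and cytokinesis genes, with 26 higher and 0 calls, and −0.07 over 42 origin and fork genes, with 18 higher and 1 call. It was −0.16 over 11 condensin and cohesin genes, −0.07 over 17 E2F, RB, MuvB and FOXM1 genes, −0.18 over 8 quiescence genes and 0.00 over 16 damage checkpoint genes. The 9 calls among these genes fell to 0 without WT DMSO replicate 2, WT TCDD replicate 2, KO TCDD replicate 1 or KO TCDD replicate 2. Of all genes, 0.387% to 0.452% were then called higher. Without KO DMSO replicate 1 there were 2 rises and 6 falls, without KO DMSO replicate 2 there were 3 and 1, and without WT TCDD replicate 1 there were 3 rises. Of all genes, 1.31%, 1.41% and 1.49% were called higher there, in this order. Shares called lower are not given for these settings.

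**Figure D4:**
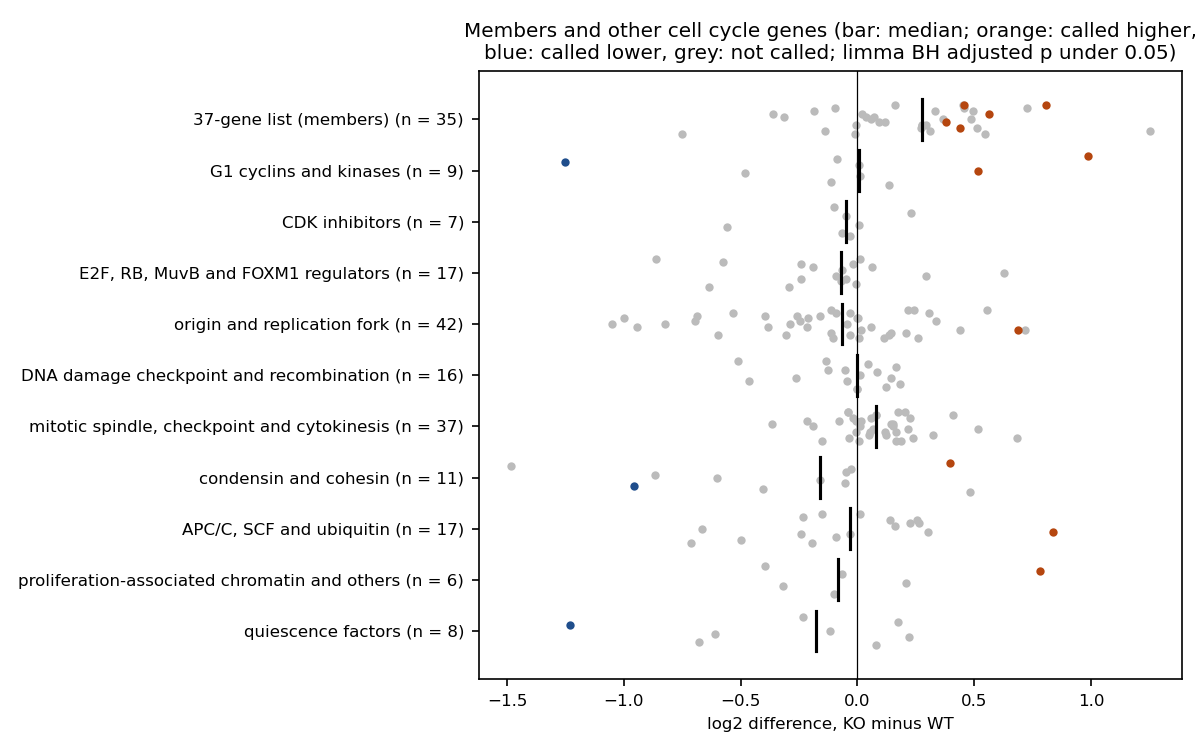
Log2 difference, KO minus WT (horizontal axis), of the 35 measured members and of 170 other cell cycle genes in 10 lists; points are genes, bars medians, and colours show calls. The median of the members lies at 0.28 and those of the other lists between −0.18 and 0.08.

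No TCDD difference was called for any member in either genotype. In WT, limma called 0 of 35 (as 0% of all genes), and 0 of 35 had an unadjusted p under 0.05, against 2.99% of all genes. The members lay at a median of 0.13 after TCDD, against 0.03 over all genes, and 24 of 35 read higher. The largest differences were those of Mki67 (0.40, SE 0.28), Pcna (0.32) and Rrm1 (0.26) upwards and Hmgb2 (−0.64, SE 0.33), Mcm6 (−0.43) and Mcm4 (−0.25) downwards (n = 2 arrays each; limma, BH adjusted p = 0.997). Without WT DMSO replicate 2 the median was −0.01 and without WT TCDD replicate 1 it was 0.01, so its sign rested on single arrays.

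In KO mice, limma also called 0 of 35 (0% of all genes), with 0 at an unadjusted p under 0.05, against 1.94% of all genes. The median was 0.10, against 0.03 over all genes, and 29 of 35 read higher after TCDD. It was 0.01 without KO DMSO replicate 2. Rrm2 (0.48, SE 0.46), Nusap1 (0.41) and Ccne1 (0.30) had the largest differences upwards and Pcna (−0.42), Tpx2 (−0.14) and Top2a (−0.12) downwards. The TCDD effect differed between genotypes for 0 members by limma (0% of all genes), and at an unadjusted p under 0.05 for 0 of 35, against 2.99%. The largest such differences, KO minus WT, were 0.64 for Hmgb2, 0.56 for Mcm6, 0.50 for Mcm4, −0.74 for Pcna, −0.30 for Rrm1 and −0.30 for Top2a (limma, BH adjusted p = 0.998 for each).

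**Figure D5:**
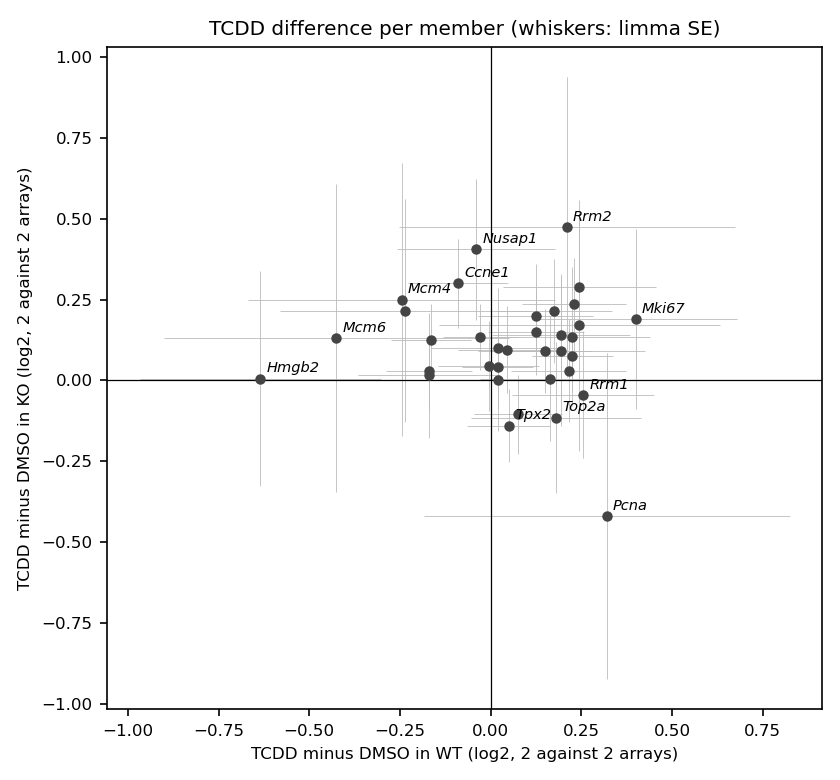
TCDD minus DMSO on the log2 scale in WT (horizontal axis) and KO (vertical axis) for the 35 members; points are limma estimates from 2 against 2 arrays and whiskers their SE. The points of Hmgb2, Pcna and Rrm2 lie farthest out, at −0.64 in WT for Hmgb2, −0.42 in KO for Pcna and 0.48 in KO for Rrm2.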

How the data were processed

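Levels were the deposited log2 values that the authors obtained by RMA (affy), per the submitters' processing notes, from MOE430A arrays of amplified RNA; versions and build are not given in the sources used here. RMA estimates background and scales arrays to each other, which compresses dim differences. Of 22690 probe sets, 64 controls were left out; the array annotation gave 20380 of the 22626 tested 1 symbol, 691 several and 1555 none, and 20351 matched RefSeq by Entrez identifier. The members and lists were chosen with earlier results of these data known.

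KO and WT were compared with limma (version 3.58.1, R 4.3.3; lmFit, eBayes) over all 8 arrays, since the design text pools treatments, and TCDD in a model of 4 group means, with BH adjustment over all probe sets. Arrays of a group are biological duplicates by their labels, from separate pools as far as stated. In the KO against WT fit, p-values measure the spread among the 4 arrays of a genotype, which includes any treatment difference. In the TCDD fit they measure the spread between the duplicates of a group. Arrays have no read depth, and their number limits precision. The fits were tested on simulated data. Values on every array are given for called members, those differing by at least 0.5, Mki67, Top2a, Pcna and Mcm2; Ccne1 and Tk1 were added after their values were seen. For other pathway genes, up to 8 calls per direction and 6 regulators are named, and for TCDD the 3 largest differences per direction. Motifs were searched in RefSeq promoters (28 of 35 members had one). Alternatives are given in the closing section; that with probe sets of suffix x or s left out was chosen after seeing the data.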

Additional observations from a re-analysis of the deposited data

Results flagged for a closer look

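In 3 of 70 sets of 4 arrays (35 members in 2 genotypes) 1 array stood apart by Dixon's criterion for 4 values, which flags about 1 set in 20 by chance. Mcm6 read 7.19 on WT TCDD replicate 2, against 8.10 to 8.22 on the other WT arrays. On KO DMSO replicate 2, Kif11 read 5.48, against 5.87 to 5.94 on the other KO arrays, and Nusap1 read 5.62, against 6.27 to 6.36. None of these genes was called.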

How the results depend on the processing

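The count of 5 members called higher was within 1.5 times of its value in 8 of 19 alternatives, leaving out the 3 choices of probe set, which cannot change the called genes' values since each has 1 probe set. The count called lower was 0 in all 22. The count called higher was 0 with the replicate block, with both WT arrays numbered 2 left out and in arrays of 1 treatment alone. Of all genes, 0.0323%, 0.121% and 0% were then called higher. That count was 1 in the model of 4 group means, 8 with the actin covariate, 11 with array weights and 1 to 5 leaving out single arrays. The share of all genes was 0.662% with group means, 3.67% with the covariate and 4.6% with weights, against 1.90%. It was 0.387% to 1.49% leaving out single arrays. In the same alternatives Cdk1 kept its call in 15 of 19, Birc5 in 9 of 18, Plk1 in 9 of 19, Mcm5 in 7 of 18 and Aurka in 6 of 19. With the replicate block the adjusted p of Cdk1 was 0.0593 (limma, BH) and 6 probe sets were called on the whole array, against 631. The replicate numbers share no stated origin: differences of array 1 minus array 2 over probe sets correlated at 0.626 between WT DMSO and WT TCDD, where the numbers thus go with a shared difference, at 0.117 between the KO groups and at −0.293 to 0.216 across genotypes. The block changed no call for TCDD. The members' median of 0.28 was 0.37 with dim probe sets left out, 0.13 without both WT arrays numbered 2, 0.18 with the second brightest probe set, 0.17 without probe sets of suffix x or s, and 0.19 to 0.37 leaving out single arrays; Mcm4 turned to −0.38 with its second probe set. The medians for TCDD ran from −0.01 to 0.18 in WT and 0.005 to 0.15 in KO leaving out single arrays.

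Other pathway genes called higher (6) and lower (3) numbered 0 and 0 with the replicate block, without both WT arrays numbered 2, with 4 group means and in DMSO or TCDD arrays alone, 11 and 10 with array weights, 3 and 0 with the second brightest probe set, 0 to 5 and 0 to 6 leaving out single arrays; 11 were lower with the actin covariate and 5 with probe sets averaged. The share of all genes called higher was 4.6% with array weights and 3.67% with the actin covariate, against 1.90% in the fit used above. It was 0.387% to 1.49% leaving out single arrays, and 0% to 0.662% in the other settings with 0 and 0. Where calls vanished, the cause was not tested beyond the loss of arrays or degrees of freedom.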
